A study of Mus musculus with 36 samples.

Results

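Chronic and acute morphine were compared in the striatum of SWR/J mice, an inbred strain, on 6 of the 36 arrays of a study of 4 inbred strains. The members were 3 arrays of chronic morphine and 3 arrays of acute morphine, chosen by their titles alone, and no measured value entered that choice. Each array held RNA pooled from 3 mice, so that the 9 mice of a group gave 3 pools, and the p-values reflect how far pools of one group lay apart, not how far single animals did. All mice were adult males of 8 to 10 weeks. Chronic mice (CHR) were injected subcutaneously with morphine 3 times a day for 4 days, the dose being 10 mg/kg on the first day, 20 mg/kg on the second and 40 mg/kg on the other two, and were given 40 mg/kg once more on day 5. Acute mice (ACU) received saline on the same schedule for 4 days and a single dose of 20 mg/kg on day 5. Control mice (SAL) received saline throughout, and striata of all groups were collected 4 h after the day 5 injection. The last dose therefore differed between the chronic and acute groups (40 and 20 mg/kg), and the number of earlier doses and the size of the last dose cannot be told apart. The arrays were Affymetrix whole-genome mouse GeneChips, on which a gene is read by 1 or more probe sets. Levels are given as log2 of the deposited signal intensity, and every difference is the mean log2 level of the chronic arrays minus that of the acute arrays.

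Morphine acts on the mu opioid receptor, which couples to inhibitory G proteins, lowers cyclic AMP and opens inwardly rectifying potassium channels. In the striatum it raises dopamine release, and the principal cells there are the medium spiny neurons, which carry dopamine receptors and opioid peptides. Morphine also activates the pituitary and adrenal axis, and corticosterone reaches the brain, where the glucocorticoid receptor acts as a transcription factor. With repeated dosing, tolerance and physical dependence develop, and SWR/J is one of the strains that differ in these traits.

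Of 45101 probe sets, 25887 had a signal above 99.7 on the linear scale on at least 3 of the 6 arrays and were not control probe sets. Of these, 22597 were above it on all 6 arrays, 94 were above it on the 3 chronic arrays alone and 78 on the 3 acute arrays alone. A single gene symbol was paired with 21727 of them, for 12810 genes in all. The tissue label was checked with medium spiny neuron genes, of which 21 of 22 on the array were kept, among them Penk, Ppp1r1b, Drd1 and Drd2. On the log2 scale, Penk (proenkephalin) averaged 12.10 in chronic and 12.09 in acute mice, Ppp1r1b (DARPP-32) 11.32 in chronic and 11.45 in acute mice, and the dopamine receptors Drd1 and Drd2 10.32 and 10.04 in chronic mice and 10.22 and 10.19 in acute mice. Over the kept probe sets, Pearson's r lay between 0.968 and 0.976 among the chronic arrays, between 0.965 and 0.979 among the acute arrays, and between 0.953 and 0.976 across the groups. The hybridization spike-in probe sets stood at 0.33, -0.10 and 0.12 log2 units from their mean over arrays on the chronic arrays, and at -0.32, 0.19 and -0.45 on the acute arrays. The poly-A spike-ins of the second chronic array stood at -0.83, against 0.18 to 0.30 on the other 8 SWR/J arrays. The part of either in the results below was not tested.

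No probe set passed an adjusted p of 0.05 in the chronic minus acute comparison (limma, 0 called, 0% of the 25887 tested), and the smallest adjusted p was 0.0547. An unadjusted p under 0.05 was reached by 3933 probe sets (15.2%), of which 2769 were lower in chronic mice (10.7% of those tested) and 1164 were higher (4.5%). With 1 array left out, that count ran between 2462 (1575 lower, without the last chronic array) and 4734 (3292 lower, without the last acute array). The 3 chronic values lay below the 3 acute values in 3958 probe sets (15.3%) and above them in 1947 (7.52%). The median difference over all kept probe sets was -0.03, with a median SE of 0.15. Quantile normalization of the deposited values moved this median to -0.01, and the unadjusted split was then 2271 lower and 1453 higher. At a looser adjusted p of 0.1, 44 probe sets were lower in chronic mice (0.17%) and 7 were higher (0.027%), and each of these 51 had chronic and acute arrays that did not overlap. None reached 0.1 when the fit held only the 6 or the 9 SWR/J arrays (smallest adjusted p 0.153 and 0.203), nor without the first or the last chronic array (0.221 and 0.147) or the first or second acute array (0.175 and 0.206). Without the second chronic array, 3 probe sets passed 0.05 (Sesn1 and a probe set with no symbol lower, Tlcd1 higher), and without each other array none did. Between 3 and 21 passed with a stricter signal filter, a pseudocount, trended and robust moderation or a random block, all of them among the 51. With array weights, 2129 passed (1675 lower). The count stayed at 0 with no filter, a filter over all 36 arrays, the classical test, median centring or quantile normalization. It also stayed at 0 with a block of replicate number within each strain. Sizes were modest: 213 probe sets were at least 1.5-fold lower and 295 at least 1.5-fold higher in chronic mice, whatever their p. The genes described below therefore did not pass the threshold in this fit unless this is said, and their values are given as measured.

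**Figure D1:**
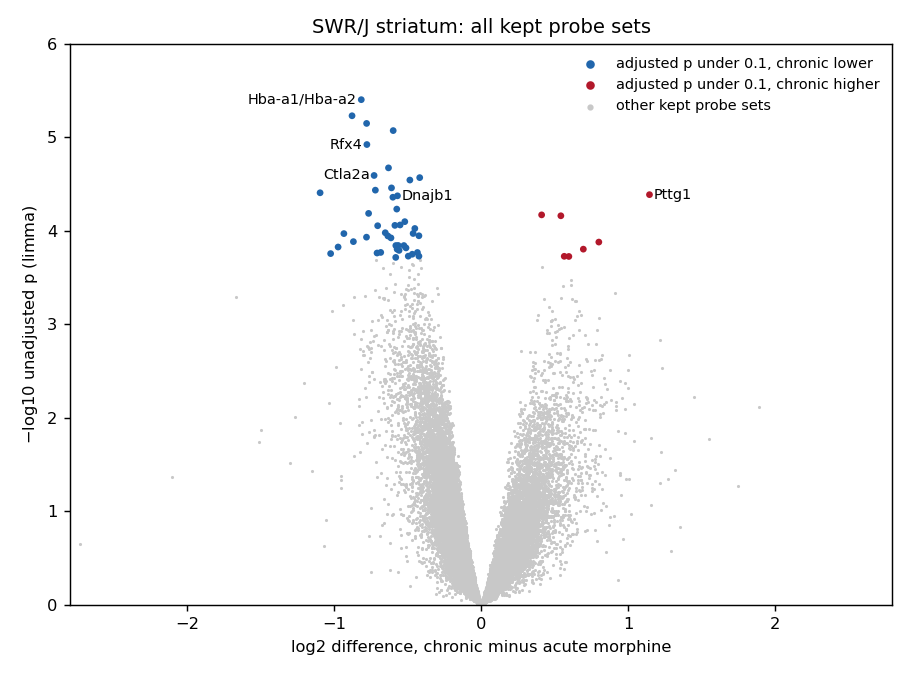
Log2 difference of chronic minus acute morphine (x axis) against minus log10 of the unadjusted limma p (y axis) for each of the 25887 kept probe sets in SWR/J striatum. Blue points are the 44 probe sets lower in chronic mice at an adjusted p under 0.1, red points are the 7 that were higher, and grey points are the rest.

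An alpha globin and a beta globin probe set had the smallest p-values of all. Globin transcripts come mainly from red cell precursors and from reticulocytes in residual blood, and some neurons are known to express them. Each of these probe sets is paired with several near-identical globin genes, so that the copies cannot be told apart, and they were singled out after their values were seen. The first probe set for Hba-a1 and Hba-a2 (alpha globin) read 11.42, 11.38 and 11.20 on the chronic arrays, 12.15, 12.31 and 12.00 on the acute arrays and 12.10, 12.08 and 12.11 on the saline arrays. The chronic values lay below all acute and all saline values, and acute and saline values overlapped. Its difference was -0.82 ± 0.14 (SE, n = 3 and 3), with an adjusted p of 0.0547 in limma. The beta globin probe set, paired with Hbb-bs, Hbb-bt, Hbb-b1 and Hbb-b2, read 11.39, 11.39 and 11.20 on the chronic arrays, 12.22, 12.34 and 12.05 on the acute arrays and 12.18, 12.18 and 12.18 on the saline arrays. Its difference was -0.88 ± 0.16 (SE, n = 3 and 3), with an adjusted p of 0.0547. The second alpha globin probe set and the last one differed by -0.63 ± 0.12 and -0.65 ± 0.14 (adjusted p 0.0753 and 0.0971).

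Against saline, the chronic difference did pass the threshold in 3 of the 4 globin probe sets, with -0.86 for beta globin (adjusted p 0.0452), -0.76 for the first alpha globin probe set (0.0495) and -0.68 for the second (0.0452). Acute minus saline differences of the same probe sets were 0.02, 0.06 and -0.05, and none passed. Summed over the 4 probe sets on the linear scale, globin signal was 10050, 10290 and 8881 on the chronic arrays, 16480, 17860 and 15010 on the acute arrays and 16140, 16070 and 16340 on the saline arrays. The 3 SWR/J chronic arrays were the 3 lowest of all 36 arrays, and the next lowest array read 10570, in DBA/2J. Alas2, the enzyme that starts haem synthesis in red cell precursors, was near the signal minimum and averaged 6.71 in chronic and 7.22 in acute mice (difference -0.51, adjusted p 0.33), with no overlap of the groups. Of 8 endothelial genes kept, 1 (Cldn5, -0.33) lay below without overlap and 1 (Tek, 0.27) above. Of 8 pericyte and vessel wall genes kept, 1 (Pdgfrb, -0.16) lay below and 2 (Myh11, 0.37, and Des, 0.46) above. In bulk tissue, fewer cells of a type and less RNA per cell cannot be told apart.

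**Figure D2:**
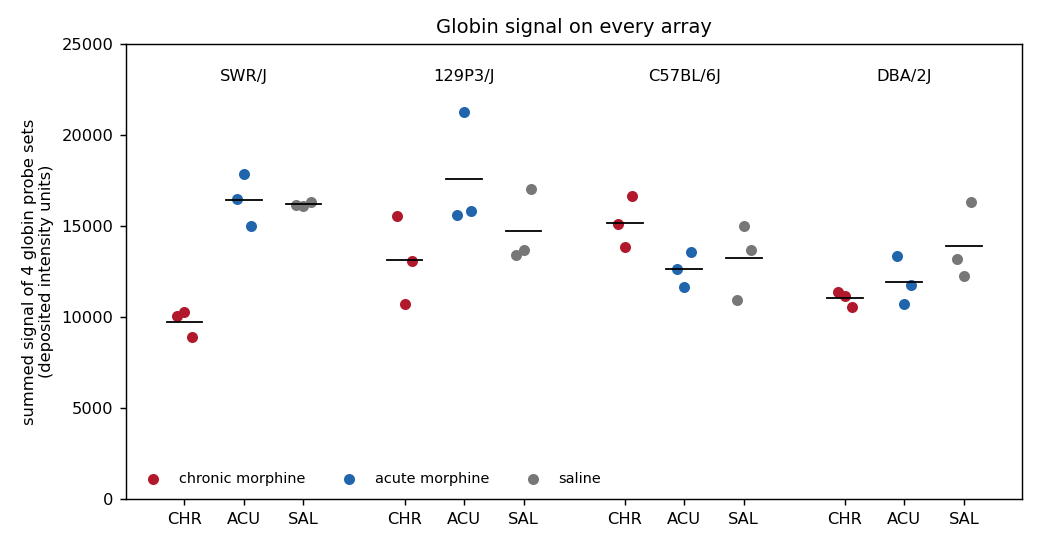
Summed deposited signal of the 4 globin probe sets (y axis, linear intensity units) on each of the 36 arrays, by strain and treatment (chronic, CHR; acute, ACU; saline, SAL), with bars at the group means. The SWR/J chronic arrays lie between 8881 and 10290 and the SWR/J acute arrays between 15010 and 17860.

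Of genes named by a single symbol, Rfx4 had the smallest p. It encodes a winged-helix transcription factor needed for brain development and ciliogenesis. Rfx4 read 7.49, 7.67 and 7.39 on the chronic arrays, 8.44, 8.40 and 8.05 on the acute arrays and 8.23, 7.80 and 7.74 on the saline arrays. Its difference was -0.78 ± 0.15 (SE, n = 3 and 3), or 1.71-fold more in acute mice, with an adjusted p of 0.0616. Lztfl1, a regulator of protein traffic in cilia, read 7.99, 7.94 and 7.90 on the chronic arrays, against 8.48, 8.31 and 8.29 on the acute arrays (difference -0.42). Wdr78, an axonemal dynein component, read 6.53, 6.57 and 6.34 on the chronic arrays, against 7.43, 7.02 and 7.16 on the acute arrays (difference -0.72). All 3 chronic values of Wdr78 were below the signal minimum, so that it was kept through the acute arrays alone. The adjusted p of Lztfl1 and that of Wdr78 were 0.0753 and 0.0753. Of 4 kept probe sets for Lztfl1, 3 were negative.

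Ctla2a, an inhibitor of lysosomal cysteine proteases, read 7.72, 7.97 and 7.84 on the chronic arrays, 8.38, 8.72 and 8.62 on the acute arrays and 7.54, 7.87 and 7.54 on the saline arrays. Its acute values stood above both other groups, while the chronic and saline values overlapped. The chronic minus acute difference was -0.73 ± 0.14 (SE, n = 3 and 3, adjusted p 0.0753). A probe set shared by Ctla2a and Ctla2b read 7.71, 7.92 and 7.87 on the chronic arrays, against 8.43, 8.69 and 8.72 on the acute arrays and differed by -0.78 ± 0.14 (SE, n = 3 and 3, adjusted p 0.0547). The acute minus saline difference passed the threshold in both, at 0.92 (adjusted p 0.00439) and 1.03 (8.29e-04). Slc5a3, the sodium and myo-inositol cotransporter, read 9.59, 9.39 and 9.50 on the chronic arrays, against 10.05, 9.86 and 10.03 on the acute arrays, with a difference of -0.49. A second Slc5a3 probe set differed by 0.37 in the other direction. Prpf4b, a kinase of the splicing machinery, read 8.15, 8.18 and 8.02 on the chronic arrays, against 8.79, 8.77 and 8.62 on the acute arrays, with a difference of -0.61. All 5 of its kept probe sets were negative, and the 3 chronic values lay below the 3 acute values in each. Hars2, the mitochondrial histidyl-tRNA synthetase, differed by -0.57 and Mrpl35, a protein of the mitochondrial ribosome, by -0.52 (adjusted p 0.0938 and 0.0971). The other 2 Mrpl35 probe sets differed by 0.24 and 0.05, so that the gene's probe sets did not point one way.

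Further probe sets among the 44 are named after their values were seen. Both Arhgap6 probe sets were low in chronic mice, at -0.97 and -0.70. Ftx, a long noncoding RNA of the X inactivation region, read 8.12, 8.39 and 7.79 on the chronic arrays, against 9.19, 9.03 and 9.16 on the acute arrays and differed by -1.02. Vegfa, the vascular growth factor, read 7.88, 8.24 and 8.08 on the chronic arrays, against 8.84, 8.86 and 9.30 on the acute arrays on one probe set (difference -0.93), whereas its probe set of highest signal differed by 0.30. Grb10, an adaptor of the insulin receptor, differed by -0.57. Dnah6, an axonemal dynein heavy chain, differed by -0.50, Erich3 by -0.59, and Rab23, a GTPase that acts on hedgehog signalling, by -0.42. Timp2, a metalloprotease inhibitor, and Lgmn, a lysosomal protease, differed by -0.47 and -0.55. Adjusted p-values of these probe sets were 0.0971 in each case.

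Higher levels in chronic mice were led by Pttg1, securin, which holds sister chromatids together until anaphase. Pttg1 read 8.04, 7.75 and 7.16 on the chronic arrays, 6.56, 6.52 and 6.42 on the acute arrays and 6.73, 7.09 and 7.08 on the saline arrays. The chronic arrays lay above all acute and saline arrays, though over a range wider than that of the acute arrays. Its difference was 1.15 ± 0.24 (SE, n = 3 and 3, adjusted p 0.0753). All 3 acute values were below the signal minimum, so that this probe set was kept through the chronic arrays alone and no fold is given. The other 2 Pttg1 probe sets differed by 0.40 and -0.11. Acvr1b, an activin receptor, read 8.35, 8.13 and 8.21 on the chronic arrays, against 7.43, 7.85 and 7.79 on the acute arrays (difference 0.54), and its second probe set differed by -0.04. Traf6, a ubiquitin ligase of Toll-like receptor signalling, differed by 0.70 without overlap, and all 3 of its kept probe sets were positive. Tlcd1, a membrane protein that affects lipid composition, read 7.71, 7.34 and 7.57 on the chronic arrays, against 7.16, 7.12 and 7.11 on the acute arrays (difference 0.41). A brighter Tlcd1 probe set differed by 0.04, with overlap. Igf2os, a transcript antisense to Igf2, read 9.02, 8.81 and 8.92 on the chronic arrays, against 8.48, 8.14 and 8.43 on the acute arrays (difference 0.57). Adjusted p-values of these 4 were 0.0938, 0.0971, 0.0938 and 0.0971.

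The remaining 5 of the 10 higher genes of smallest p had adjusted p-values of 0.13 to 0.132. Ank3, ankyrin-G of the axon initial segment, read 9.49, 9.34 and 9.29 on the chronic arrays, 8.78, 8.63 and 8.86 on the acute arrays and 9.50, 9.01 and 9.46 on the saline arrays. Its acute values lay below both chronic and saline values, and all 4 of its kept probe sets were positive (range 0.15 to 0.61). Ankrd49 differed by 0.61, Tnk1, a tyrosine kinase, by 0.55, Zhx3, a zinc finger homeobox repressor, by 0.54, and Asb2, a ubiquitin ligase subunit, by 0.43. Chronic and acute values did not overlap in any of them, and the 3 acute values of Ankrd49 were below the signal minimum, so that it was kept through the chronic arrays alone. The other probe sets of Tnk1 and Zhx3 were negative, at -0.05 for both of Tnk1 and -0.20 and -0.14 for Zhx3.

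**Figure D3:**
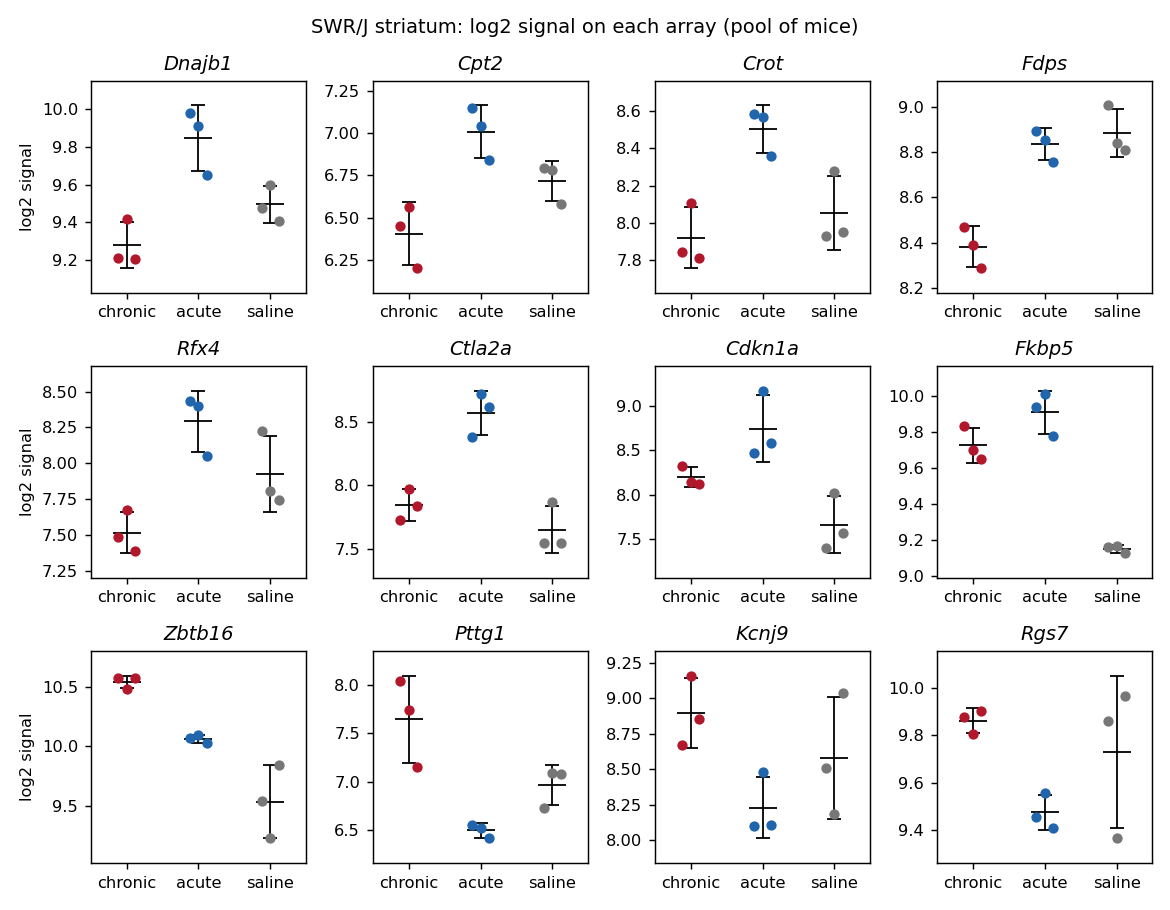
Log2 signal (y axis) of 12 genes on the SWR/J chronic, acute and saline arrays, 1 point per array (pool of 3 mice), with the mean and SD of each group in black. Chronic points lie below the acute points for Dnajb1, Cpt2, Crot, Fdps, Rfx4, Ctla2a and Cdkn1a and above them for Zbtb16, Pttg1, Kcnj9 and Rgs7, and those of Fkbp5 overlap.

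Of 424 genes in the lists of pathways and cell types with a kept probe set, 0 passed the threshold in either direction, with Dnajb1 and Cpt2 at the smallest adjusted p (0.0753). Counts below are of members whose chronic and acute arrays did not overlap. They stand beside the 15.3% (below) and 7.52% (above) of all kept probe sets, and medians beside their median of -0.03. A list takes the brightest kept probe set of each gene, whereas these shares cover dim ones too. Brighter probe sets were lower more often. At an unadjusted p under 0.05 (limma), 2069 of 14095 with a mean log2 above 8 were lower, against 2769 of all 25887. Counts of negative differences stand beside 56.2% of all kept probe sets, or 52.3% after quantile normalization of the deposited values. No list was tested as a set.

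Heat shock genes encode chaperones that heat shock factor induces when proteins unfold. Of 17 genes kept, 11 lay below on all chronic arrays and 0 above, 16 differences were negative, and the median was -0.22. Dnajb1, the Hsp40 co-chaperone, read 9.21, 9.42 and 9.20 on the chronic arrays, 9.98, 9.91 and 9.65 on the acute arrays and 9.48, 9.60 and 9.41 on the saline arrays. Its difference was -0.57 ± 0.12 (SE, n = 3 and 3), 1.48-fold more in acute mice, with an adjusted p of 0.0753, and its second probe set differed by -0.51. Cryab, a small heat shock protein also found in oligodendrocytes, read 9.56, 9.89 and 9.59 on the chronic arrays, against 10.10, 10.40 and 9.94 on the acute arrays (difference -0.47, adjusted p 0.244). Its second probe set differed by -0.76. The inducible Hsp70 gene Hspa1b read 9.49, 9.52 and 9.49 on the chronic arrays, against 9.99, 10.01 and 9.68 on the acute arrays (difference -0.39, adjusted p 0.268), and its other 2 probe sets differed by -0.65 and -0.53. Hspa1a read 6.92, 7.32 and 7.05 on the chronic arrays, against 7.93, 7.63 and 7.11 on the acute arrays, with overlap, and Hspa1a and Hspa1b are near-identical copies that probes may not separate. Smaller differences without overlap were found for Hspa4l (-0.27), the co-chaperone Dnaja1 (-0.25), Ahsa1 (-0.25), Hspd1 (-0.23) and Hsph1 (-0.22), which exchanges nucleotide on Hsp70, whereas the constitutive Hsc70 gene Hspa8 (-0.01) and Bag3 (0.18), a co-chaperone, overlapped.

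Promoter windows of RefSeq (GRCm38.p6, from upstream of each start into the transcript) were searched for the heat shock element GAANNTTC on both strands. It was found for 9 of 14 heat shock genes with a window (64.3%), against 9.04% of 27025 genes with a window. Windows of 3 genes that hold it, and whose chronic values lay below the acute values, are shown with the element in capitals, at chr17:34959189-34959488 (minus strand), chr4:40722218-40722517 (plus strand) and chr5:149636287-149636586 (minus strand).
Hspa1b: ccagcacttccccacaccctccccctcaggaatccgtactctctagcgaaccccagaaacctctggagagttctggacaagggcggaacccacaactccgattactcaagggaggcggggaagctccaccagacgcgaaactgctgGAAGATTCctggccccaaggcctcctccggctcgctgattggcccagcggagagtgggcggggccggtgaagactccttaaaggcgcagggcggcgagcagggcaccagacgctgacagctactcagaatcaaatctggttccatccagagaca
Dnaja1: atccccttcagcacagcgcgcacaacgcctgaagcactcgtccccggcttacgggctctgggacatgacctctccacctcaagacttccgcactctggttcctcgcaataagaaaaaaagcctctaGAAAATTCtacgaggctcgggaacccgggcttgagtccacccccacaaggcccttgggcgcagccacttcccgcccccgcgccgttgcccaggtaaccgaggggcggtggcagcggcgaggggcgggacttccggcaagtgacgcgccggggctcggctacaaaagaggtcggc
Hsph1: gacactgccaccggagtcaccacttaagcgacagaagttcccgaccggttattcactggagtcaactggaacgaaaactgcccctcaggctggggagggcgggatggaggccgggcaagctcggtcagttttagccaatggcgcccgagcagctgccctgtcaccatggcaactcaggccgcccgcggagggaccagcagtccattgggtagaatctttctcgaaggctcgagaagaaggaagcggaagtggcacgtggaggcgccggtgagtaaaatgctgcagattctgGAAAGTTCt
In Hspa1b and Dnaja1 the element began at base 147 and 127 of the window, upstream of the start, and in Hsph1 at base 292, within the transcript. The letters were also in the windows of Hspa1a, Bag3, Hspe1, Chordc1 and Hspb1, whose chronic and acute values overlapped. Hspd1, whose chronic values lay below, held them too. Dnajb1, the heat shock gene of smallest p, had a window without them. The part of the element in the differences was not tested. A match describes the letters of the window and is not a binding site. For the other motifs searched, the glucocorticoid receptor half-site TGTTCT was in the windows of 4 of 24 glucocorticoid-responsive genes (16.7%, against 21.3% of all genes), and the E-box CACGTG in those of 4 of 15 circadian clock genes (26.7%, against 8.09%). The E-box was about as frequent in some other lists, with 3 of 10 pyruvate dehydrogenase genes (30.0%), 4 of 15 cholesterol synthesis genes (26.7%) and 6 of 24 glucocorticoid-responsive genes. Several lists held none, among them 22 genes of fatty acid oxidation and 16 myelin genes. The cyclic AMP response element TGACGTCA was in 2 of 18 immediate early genes (11.1%, against 2.03%). These were Btg2 and Dusp1, which also stand in the p53 and glucocorticoid lists. Some other lists held it as often, with 2 of 12 p53-responsive genes (16.7%) and 3 of 25 respiratory chain genes (12.0%), while several held none.

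Fatty acid oxidation takes place in mitochondria, which long chains enter as carnitine esters. Of 25 genes of fatty acid oxidation and ketone use kept, 12 lay below on all chronic arrays and 1 (Acot2, 0.22) above, with a median of -0.16. Cpt2, carnitine palmitoyltransferase of the inner membrane, read 6.45, 6.57 and 6.20 on the chronic arrays, 7.14, 7.04 and 6.84 on the acute arrays and 6.79, 6.78 and 6.58 on the saline arrays. Its difference was -0.60 ± 0.12 (SE, n = 3 and 3, adjusted p 0.0753). All 3 chronic values were below the signal minimum, so that it was kept through the acute arrays alone and no fold is given. Crot, the peroxisomal carnitine octanoyltransferase, read 7.84, 8.11 and 7.81 on the chronic arrays, against 8.58, 8.57 and 8.36 on the acute arrays (difference -0.58, adjusted p 0.0975), and its second probe set differed by 0.03. Acot1, a cytosolic acyl-CoA thioesterase, read 7.28, 7.11 and 7.01 on the chronic arrays, against 7.67, 7.94 and 7.54 on the acute arrays (difference -0.59, adjusted p 0.145). The trifunctional protein subunits Hadhb and Hadha differed by -0.49 and -0.22, the ketone-using enzyme Oxct1 by -0.36 and the carnitine carrier Slc25a20 by -0.26, all without overlap. Cpt1a, the outer membrane transferase, read 8.15, 8.32 and 8.34 on the chronic arrays, against 8.38, 8.51 and 8.43 on the acute arrays on its brightest probe set (-0.17), and its other probe sets differed by -0.71 and -0.40.

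Pyruvate dehydrogenase links glycolysis to the citric acid cycle and is switched off by its kinases. Of 11 genes kept, 2 lay below and 0 above, with a median of -0.18. The members below were Pdk3 (-0.21), another of the kinases, and Pdha1 (-0.15), a subunit of the enzyme. Pdk4, the kinase induced by fasting and glucocorticoids, read 8.05, 8.00 and 7.66 on the chronic arrays, against 8.42, 8.49 and 7.82 on the acute arrays and overlapped (difference -0.34, adjusted p 0.379). Pdpr, of the phosphatase that reactivates the enzyme, differed by 0.30, with overlap. The respiratory chain genes had 30 of 34 negative differences and a median of -0.07, and 8 lay below and 2 above. The pair above were Ndufa10 (0.32) and Uqcrc2 (0.30), subunits of complexes I and III, and the lowest was Uqcrc1 (-0.25). A second Ndufa10 probe set differed by -0.11, with overlap.

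Cholesterol synthesis genes are induced together by SREBP-2 when sterols are scarce. Of 19 kept, 5 lay below and 1 (Mvd, 0.25) above, 15 were negative, and the median was -0.22. Fdps, farnesyl diphosphate synthase, read 8.47, 8.39 and 8.29 on the chronic arrays, 8.89, 8.86 and 8.76 on the acute arrays and 9.01, 8.84 and 8.81 on the saline arrays. The chronic values lay below both other groups, which overlapped. Its difference was -0.45 ± 0.10 (SE, n = 3 and 3, adjusted p 0.0971). Cyp51, lanosterol demethylase, read 7.78, 8.13 and 7.91 on the chronic arrays, against 8.57, 8.34 and 8.27 on the acute arrays (difference -0.45, adjusted p 0.222). Idi1 (-0.32), Sqle (-0.28), squalene epoxidase, and Sc5d (-0.27) also lay below, while Hmgcs1 (-0.14) overlapped and Srebf2 itself differed by 0.04.

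Endoplasmic reticulum stress genes, the targets of the unfolded protein response, had 7 of 18 below and 0 above, with a median of -0.13. Manf, a secreted protein of that response, read 9.10, 9.14 and 9.00 on the chronic arrays, against 9.64, 9.43 and 9.26 on the acute arrays (difference -0.36, adjusted p 0.199). Atf4, its transcription factor, read 9.30, 9.55 and 9.54 on the chronic arrays, against 9.74, 9.89 and 9.78 on the acute arrays (difference -0.34, adjusted p 0.244). Hspa5, the chaperone BiP, differed by -0.25 without overlap, and Atf3 by 0.24 with overlap.

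The glucocorticoid receptor raises the transcription of many of the genes in the next list. Of 29 kept, 4 lay below and 2 above, shares near those of all kept probe sets, and differences ran between -0.49 and 0.58 (median -0.14). Fkbp5, a co-chaperone that glucocorticoids induce, read 9.83, 9.70 and 9.65 on the chronic arrays, 9.94, 10.01 and 9.78 on the acute arrays and 9.16, 9.16 and 9.12 on the saline arrays. Chronic and acute values overlapped, and both lay above all saline values. The chronic minus acute difference was -0.18 ± 0.09 (SE, n = 3 and 3, adjusted p 0.342), while chronic minus saline (0.58, adjusted p 0.012) and acute minus saline (0.76, adjusted p 1.46e-04) both passed the threshold. Zbtb16, a zinc finger transcription factor, read 10.57, 10.48 and 10.57 on the chronic arrays, 10.07, 10.10 and 10.03 on the acute arrays and 9.54, 9.23 and 9.84 on the saline arrays. Its chronic values lay above its acute values, which lay above its saline values, yet with an SE of 0.29, taken from all 12 groups, its difference of 0.48 had an adjusted p of 0.435, and its other probe sets differed by -0.12 and 0.10. Rhpn2 read 7.40, 7.53 and 7.29 on the chronic arrays, against 7.92, 8.12 and 7.64 on the acute arrays (difference -0.49, adjusted p 0.163), and Arrdc2, an arrestin-domain protein, had the largest positive difference at 0.58, with overlap.

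Further glucocorticoid-responsive genes differed little in the mean. Tsc22d3 (GILZ) read 10.21, 10.31 and 10.35 on the chronic arrays, against 10.58, 10.46 and 10.31 on the acute arrays (difference -0.16). Sgk1, the serum and glucocorticoid kinase, read 10.72, 10.55 and 10.57 on the chronic arrays, against 10.90, 10.86 and 10.65 on the acute arrays (difference -0.19). Camk1g, a calcium-dependent kinase, read 9.52, 9.46 and 9.35 on the chronic arrays, against 9.66, 9.68 and 9.38 on the acute arrays (difference -0.13). All 3 overlapped, with adjusted p-values of 0.62, 0.542 and 0.557. Sgk3 differed by -0.21, Klf15 by -0.28, Nfkbia by 0.02, Cebpd by 0.40 and Fzd2, a Wnt receptor, by 0.21. Of these 5, Sgk3 lay below and Fzd2 above without overlap. The other Fzd2 probe sets differed by -0.16 and 0.02, with overlap. The second probe set of Cebpd differed by -0.38, against 0.40 for the brighter one.

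Targets of p53 included genes of growth arrest. Of 15 kept, 5 lay below and 0 above, with a median of -0.08. Cdkn1a, the cell cycle inhibitor p21, read 8.33, 8.14 and 8.13 on the chronic arrays, 8.48, 9.18 and 8.58 on the acute arrays and 7.40, 8.02 and 7.56 on the saline arrays. Its acute minus saline difference of 1.09 passed the threshold (adjusted p 0.00957), and its chronic minus acute difference of -0.55 ± 0.18 (SE, n = 3 and 3) did not (adjusted p 0.185). Sesn1, a stress-induced inhibitor of TOR signalling, read 8.67, 9.65 and 9.42 on the chronic arrays, against 9.95, 9.91 and 9.79 on the acute arrays. The first chronic array stood below the other two, and all lay below the acute arrays. The difference was -0.64 ± 0.14 (SE, n = 3 and 3, adjusted p 0.0971), and all 4 of its probe sets were negative. Without the second chronic array its adjusted p was 0.0375. Without the first chronic array, where Sesn1 read lowest, no probe set had an adjusted p below 0.221. Pmaip1 (Noxa), Trp53inp1 and Btg2 differed by -0.51, -0.34 and -0.32.

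Clock genes form a loop of activators and repressors. Of 17 kept, 5 lay below (Cry1, Rora, Arntl, Clock and Npas2) and 1 above (Ciart, 0.44). Cry1, a clock repressor, read 7.34, 7.61 and 7.16 on the chronic arrays, against 8.32, 8.02 and 7.95 on the acute arrays (difference -0.73, adjusted p 0.233). Rora, an activator of Arntl, read 8.02, 8.56 and 8.06 on the chronic arrays, against 8.83, 8.95 and 8.66 on the acute arrays (difference -0.60, adjusted p 0.186), but only 3 of its 9 kept probe sets were negative. Arntl (BMAL1), Clock and Npas2, the activators of the loop, differed by -0.35, -0.26 and -0.25. Dbp and Nr1d1, which they drive, differed by 0.33 and 0.47, with overlap.

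Opioid peptides and their receptors are the system on which morphine acts. Of 7 kept, 1 lay below and 0 above, and the median was 0.00. Oprm1, the mu receptor, read 8.27, 8.23 and 8.22 on the chronic arrays, against 7.87, 7.75 and 8.43 on the acute arrays, with overlap (difference 0.22 ± 0.15 SE, adjusted p 0.485). Penk and Pdyn, the enkephalin and dynorphin precursors, differed by 0.00 and -0.05, and Oprk1, the kappa receptor, by 0.07. Pnoc, the nociceptin precursor, read 6.88, 6.77 and 6.80 on the chronic arrays, against 7.25, 7.21 and 7.21 on the acute arrays and lay below without overlap (difference -0.41, adjusted p 0.313).

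Downstream of the receptor, 24 G protein effector genes had 5 below and 3 above, with a median of -0.10. Kcnj9 (GIRK3), a subunit of the potassium channel that Gβγ opens, read 8.67, 9.16 and 8.85 on the chronic arrays, 8.10, 8.48 and 8.11 on the acute arrays and 8.51, 8.19 and 9.04 on the saline arrays. Its difference was 0.66 ± 0.24 (SE, n = 3 and 3, adjusted p 0.202), and saline values ranged over both groups. Rgs7, which speeds the return of Gαi and Gαo to rest, read 9.88, 9.80 and 9.90 on the chronic arrays, against 9.46, 9.56 and 9.41 on the acute arrays (difference 0.39, adjusted p 0.197). Gnaz (Gαz) differed by 0.32 without overlap and Kcnj3 (GIRK1) by 0.35 with overlap. The lowest member was Gng2 (-0.31), followed without overlap by Rgs10 (-0.22), Gnai1 (-0.19), Rgs2 (-0.19) and Rgs9 (-0.09).

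Cyclic AMP signalling genes had 3 of 26 below and 3 above (median -0.07). Pde4a, a cyclic AMP phosphodiesterase, read 8.80, 8.75 and 8.73 on the chronic arrays, against 8.35, 8.35 and 8.69 on the acute arrays (difference 0.30, adjusted p 0.43), and Crtc2, a CREB coactivator, differed by -0.32 with overlap, and 1 of its acute arrays stood high (acute arrays 7.65, 7.58 and 8.56). Adcy5, the main striatal adenylyl cyclase, differed by 0.06. Medium spiny neuron genes had 4 of 21 below and 1 above (median -0.07). Foxp1, a striatal transcription factor, read 11.16, 11.14 and 11.05 on the chronic arrays, against 10.94, 10.85 and 10.80 on the acute arrays (difference 0.25, adjusted p 0.331), and all 7 of its kept probe sets were positive. Isl1, which specifies the direct pathway, differed by -0.23, with overlap.

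Immediate early genes follow neuronal activity within an hour, and the tissue was taken 4 h after the last dose. Of 22 kept, 2 (Npas4 and Btg2) lay below and 0 above, with a median of -0.06. Npas4, an activity-dependent transcription factor, read 7.65, 7.95 and 8.25 on the chronic arrays, 8.66, 9.25 and 8.35 on the acute arrays and 8.83, 8.20 and 8.43 on the saline arrays (difference -0.81, adjusted p 0.227). Fosl2 differed by -0.37, Fos by -0.20, Arc by -0.03 and Egr1 by 0.02, all with overlap.

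Receptor genes for GABA and glutamate had 7 of 29 below and 1 (Gabrb2, 0.37) above, with a median of -0.08. Gabrg1, a GABA-A subunit, read 8.36, 8.29 and 8.04 on the chronic arrays, against 9.09, 8.53 and 8.85 on the acute arrays (difference -0.60 ± 0.18 SE, adjusted p 0.159). Grik2, a kainate receptor subunit, read 9.10, 9.10 and 8.97 on the chronic arrays, against 9.55, 9.44 and 9.48 on the acute arrays (difference -0.43, adjusted p 0.154), and both of its probe sets lay below. Gabrb1, another GABA-A subunit, differed by -0.40. Astrocytes also express some of these receptors, and their markers had a median of -0.16. The part of astrocytes in the receptor differences was not tested.

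Among hypoxia-responsive genes, 2 of 14 lay below and 1 above. Ndrg1, also abundant in oligodendrocytes, read 10.04, 10.20 and 9.83 on the chronic arrays, against 10.51, 10.59 and 10.34 on the acute arrays (difference -0.45, adjusted p 0.145), and all 5 of its probe sets lay below. Hk2, hexokinase 2, lay above (0.36, adjusted p 0.219). Of 11 glucose transport genes, 3 lay below: Stxbp4 and Stxbp3, which act on docking of transporter vesicles, and Tbc1d4 (AS160), an Akt substrate. Stxbp4 read 6.95, 7.22 and 6.68 on the chronic arrays, against 7.57, 7.65 and 7.34 on the acute arrays (difference -0.57, adjusted p 0.21). Tbc1d4 read 8.19, 8.37 and 8.05 on the chronic arrays, against 8.69, 8.70 and 8.85 on the acute arrays (difference -0.55, adjusted p 0.164). Stxbp3 differed by -0.34 (adjusted p 0.248). The second Tbc1d4 probe set differed by 0.26. Of 7 histone genes, H2bc22 lay below (-0.50, adjusted p 0.152) and H3f3a above (0.46, adjusted p 0.273). Cirbp, a cold-inducible RNA-binding protein and the 1 member of its list kept, differed by -0.13, with overlap.

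Myelin genes had 3 of 22 below and 1 (Opalin, 0.26) above, with a median of -0.09. Olig1, an oligodendrocyte transcription factor, read 10.79, 10.94 and 10.77 on the chronic arrays, against 11.00, 11.07 and 11.07 on the acute arrays (difference -0.22, adjusted p 0.249), and Gjb1, a gap junction protein of myelin, lay below as well (-0.31, adjusted p 0.347). Olig2 (-0.08), Ugt8a (-0.11), which makes galactolipids of myelin, and Mbp (0.06) overlapped. Of 8 precursor genes, 2 lay below, with Pdgfra at -0.34, and Cspg4 (NG2) differed by 0.34 with overlap. A second Pdgfra probe set, near the signal minimum, differed by 0.01. The summed signal of the myelin genes ran between 28700 and 33400 on the chronic arrays and between 30500 and 34200 on the acute arrays.

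**Figure D4:**
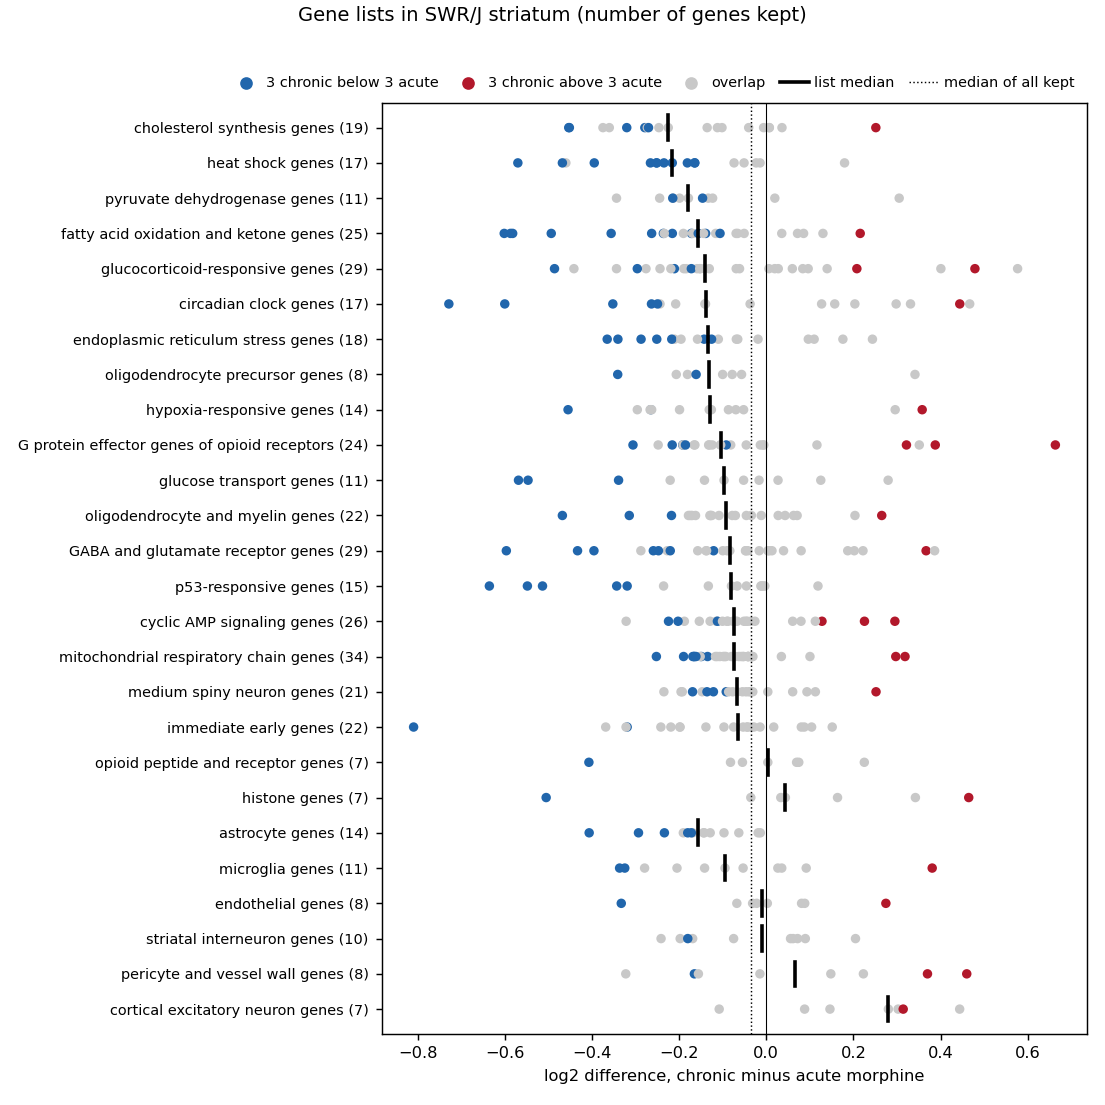
Log2 difference of chronic minus acute morphine (x axis) for each gene of the lists with at least 7 genes kept, 1 row per list with its number of genes. Blue points lie below on all chronic arrays, red points above, grey points overlap, thick bars are list medians and the dotted line is the median of all kept probe sets (-0.03).

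Several further genes were named for morphine in the study. Plcd4, a phospholipase C, read 6.89, 7.34 and 6.77 on the chronic arrays, against 7.64, 7.75 and 7.52 on the acute arrays (difference -0.64 ± 0.18 SE, adjusted p 0.147). Its second probe set differed by 0.32 in the other direction. Npy5r, a receptor of neuropeptide Y, read 6.88, 6.72 and 6.76 on the chronic arrays, against 7.28, 6.96 and 7.25 on the acute arrays (difference -0.38, adjusted p 0.22). A second Npy5r probe set differed by 0.03, with overlap. Rgma, a guidance molecule, read 9.43, 9.08 and 9.03 on the chronic arrays, against 8.84, 8.79 and 8.83 on the acute arrays and lay above (difference 0.36, adjusted p 0.298). Utrn (utrophin) and Dusp14, a phosphatase, overlapped, at -0.08 and 0.09.

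Markers of other cell types were read beside these lists. Astrocyte genes had 14 of 14 negative differences (against 56.2% of all kept probe sets), 5 below and 0 above, with a median of -0.16. Dio2, which activates thyroid hormone, differed by -0.41, S100b by -0.29 and Gja1, a gap junction protein, by -0.23, while Gfap (-0.02) and Slc1a3 (-0.01) were near 0. The summed astrocyte signal was 23200 to 25600 on the chronic arrays, 25500 to 27000 on the acute arrays and 22800 to 24300 on the saline arrays. Microglia genes had 2 of 11 below and 1 above, with C1qa at -0.34 and Cx3cr1 at 0.38 (summed signal 5920 to 6460 chronic and 6150 to 7360 acute). Cortical excitatory genes had a median of 0.28, with 1 of 7 above. Their summed signal was 3580 to 5410 on the chronic arrays, 3460 to 5230 on the acute arrays and 3200 to 4260 on the saline arrays, which overlapped. Striatal interneuron genes had 1 of 10 below and 0 above. Of 10 choroid plexus genes on the array 2 were kept, and Ttr, their most abundant marker, differed by -0.29 ± 0.82, an SE larger than the difference. No marker list held a gene past the threshold, and the part of these cell types in the differences above was not tested.

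Chronic and acute mice share the saline arrays, so their differences from saline are set side by side without a comparison. Chronic minus saline passed the threshold in 3 probe sets that were higher (0.0116%) and 3 that were lower (0.0116%), and acute minus saline in 13 that were higher (0.0502%) and 0 that were lower (limma, with 756 lower at an unadjusted p under 0.05). The lower chronic probe sets were the globin probe sets above. The higher ones were Fkbp5, Greb1l (0.78, adjusted p 0.0452) and a probe set shared by the Ugt1a genes of glucuronidation, enzymes that conjugate drugs and bilirubin (0.81, adjusted p 0.0111). Acute minus saline passed for Fkbp5, Greb1l (0.96), Ctla2a and the Ctla2 pair, Cdkn1a, Rhpn2 (0.78), Camk1g (0.58), Nt5e (0.83), the adenosine-producing ecto-enzyme, Aff1 (0.74), Pxdn (0.73), a second Sgk3 probe set (0.73), Fam169a (0.45) and Zfand4 (0.80). The chronic minus saline differences were 0.19 for Ctla2a, 0.54 for Cdkn1a, 0.29 for Rhpn2, 0.45 for Camk1g and 0.50 for Nt5e. These Nt5e values are of 1 probe set, named after its values were seen. A brighter Nt5e probe set, used in the list, differed from saline by 0.23 in acute and 0.33 in chronic mice. Chronic minus acute was -0.32 on the former and 0.10 on the latter.

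The same contrast in the other strains was read from other mice. The mean chronic minus acute difference of 129P3/J, C57BL/6J and DBA/2J, over 9 arrays against 9, passed the threshold in 1999 probe sets that were lower (7.72%) and 1328 that were higher (5.13%), and in 459 and 324 with a random block of treatment and replicate number. Taken singly, 1 probe set passed in 129P3/J (0.00386%), 63 in C57BL/6J (0.243%) and 353 in DBA/2J (1.36%). These counts do not test whether strains differ. That difference, SWR/J minus the mean of the other strains, was tested itself, and 0 probe sets passed (0%), with 396 at an unadjusted p under 0.05 (1.53%, or 286 to 868 with 1 SWR/J array left out, the fewest without the second and the most without the last acute array) and a smallest adjusted p of 0.999994. Of the 51 SWR/J probe sets at an adjusted p under 0.1, all 51 had the same sign in the mean of the other strains, and 39 passed there (19 with that random block). By strain, 50 had the same sign in 129P3/J, 40 in C57BL/6J and 49 in DBA/2J.

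Crot was lower in chronic than in acute mice of each strain, with -0.58 in SWR/J and -0.48, -0.66 and -0.73 in 129P3/J, C57BL/6J and DBA/2J (mean of these -0.63 ± 0.08, adjusted p 2.53e-04). Gabrg1 stood at -0.60 in SWR/J and at -0.60, -0.58 and -0.57 in the other strains (mean adjusted p 0.00224). Plcd4 stood at -0.64, against -0.68, -0.50 and -0.71 (mean adjusted p 0.00161). Cpt2 and Ctla2a averaged -0.38 and -0.47 over the other strains (adjusted p 0.00253 and 0.00224). Dnajb1 stood at -0.57 in SWR/J, -0.33 in 129P3/J, 0.16 in C57BL/6J and -0.60 in DBA/2J (mean -0.26, adjusted p 0.0161, and 0.0702 with the random block). Rfx4 stood at -0.21, -0.07 and -0.67 in the same order (mean -0.32, adjusted p 0.0163, and 0.0797 with the random block).

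**Figure D5:**
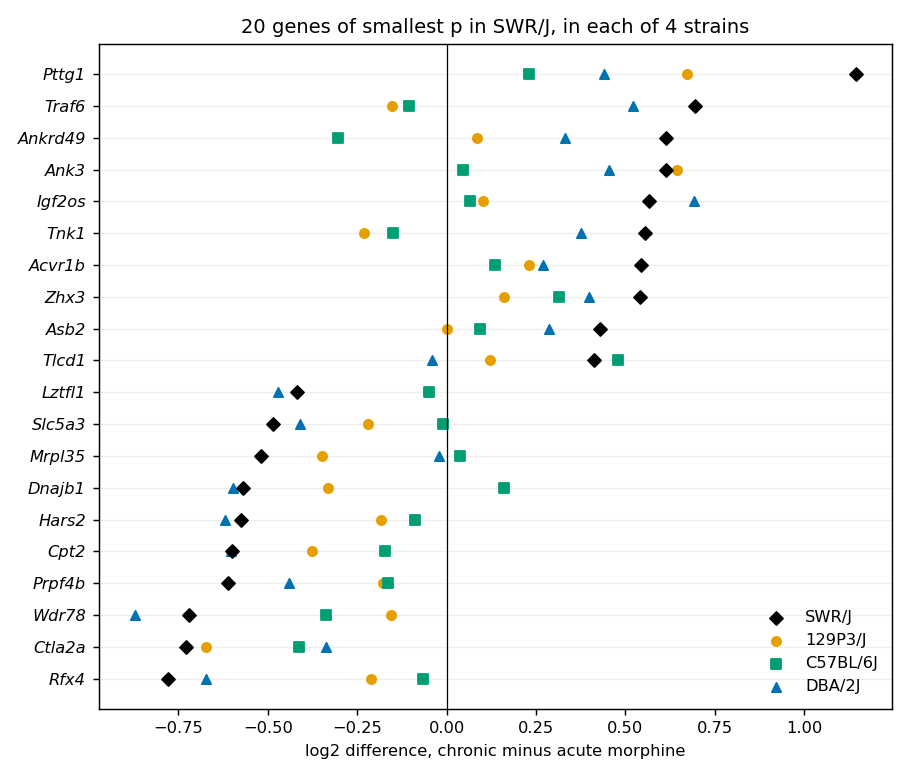
Log2 difference of chronic minus acute morphine (x axis) in SWR/J (diamonds), 129P3/J, C57BL/6J and DBA/2J for the 10 higher and 10 lower genes of smallest p in SWR/J (rows). The genes were chosen on the SWR/J values, and the other strains are read from other arrays.

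Globin was set against the other strains in the same way. The first alpha globin probe set differed by -0.82 in SWR/J, -0.44 in 129P3/J, 0.29 in C57BL/6J and -0.10 in DBA/2J. SWR/J minus the others was -0.73 ± 0.16, with an adjusted p of 0.999994. The 8 genes with a single symbol and the smallest p in this test were Mri1, Ankrd26, Gm13889, Sfi1, Wtap, Tnk1, Alkbh5 and Ankrd49, and none passed. Mri1, of methionine salvage, stood at -0.42 in SWR/J and 0.05 in the others, and Wtap, of the RNA methyltransferase complex, at -0.22 and 0.25. Alkbh5, an RNA demethylase, stood at -0.20 in SWR/J and 0.31 in the others, and Sfi1, a centrosome protein, at -0.46 and 0.29. Ankrd49 and Tnk1 were high in SWR/J (0.61 and 0.55) and averaged 0.04 and close to 0 in the others, where Ankrd49 is the probe set kept through the SWR/J chronic arrays alone. Ankrd26 stood at -0.30 in SWR/J and 0.01 in the others, and Gm13889 at -0.38 and 0.14. Fdps, of cholesterol synthesis, was lower in SWR/J (-0.45) than in the others (-0.08), a difference of -0.37 ± 0.11 that did not pass either.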

How the data were processed

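The deposited values were signal intensities on a linear scale, which the authors made from the scanned Affymetrix arrays. Their methods name RMA, dChip and PDNN, each with quantile normalization, and the linear scale and shared floor of the values point to the dChip model, which the sources used here do not state for the deposited table. The lowest deposited value is 6.69, and 3.69% to 4.11% of probe sets stood at it on the SWR/J arrays. Values were taken to log2, and probe sets with a signal above 99.7 on at least 3 of the 6 arrays were kept. Limma 3.58.1 (R 4.3.3) was fitted to 12 group means over all 36 arrays, with 24 residual degrees of freedom, and p-values were adjusted by the Benjamini-Hochberg method over 25887 probe sets. An exact permutation test of 3 against 3 cannot go below 0.1. SEs are those of the fit, which was tested on simulated data. Symbols came from the platform annotation, updated through RefSeq (GRCm38.p6). For each gene the kept probe set of highest mean was used in lists. Named genes were the 10 of smallest p in each direction, the 8 of smallest p for SWR/J against the other strains, the 2 of largest change of each pathway list, and genes named in the study, and further genes are said in the text to be chosen after their values were seen or stand as members of a list. The members and lists were chosen with earlier results of these data known. Same-numbered chronic and acute arrays of SWR/J deviated together (correlations 0.446, 0.285 and 0.450). No label says that the replicate numbers pair the samples, and the main fit did not use them. Over all 36 arrays, the correlation within blocks was 0.0156 for strain and number and 0.244 for treatment and number. The alternatives tried were other filters, pseudocounts, normalizations, blocks, weights, moderation and thresholds, and leaving out each of the 6 arrays. The number of arrays limits the precision.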

Additional observations from a re-analysis of the deposited data

How the results depend on the processing

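The chronic minus acute count of 0 calls moved under several settings. It was 10 with a mean log2 signal above 8, 3 with a pseudocount of 16, 8 with a pseudocount of 50, 21 (20 lower) with a random block of treatment and replicate number, 7 with trended and robust moderation, 51 at an adjusted p under 0.1, and 2129 (1675 lower) with array weights. All of these probe sets in the counts of 3 to 21 were among the 51, and all 51 were among the 2129. Array weights gave the first acute array 2.36 and the third 0.509. The cause of these moves was not tested. Leaving out 1 array gave 0 to 3 calls, 3 without the second chronic array (Sesn1, Tlcd1 and a probe set with no symbol) and 0 without each of the others, and 0 to 1 of the list genes. The count was 0 with no filter, with 9 of 36 arrays as the filter, with quantile normalization or median centring, with the classical test, at an adjusted p under 0.01, at 1.2-fold, and on the 6 or the 9 SWR/J arrays alone.

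With the replicate block (paired analysis, numbers within each strain) the count stayed at 0. With the replicate block in SWR/J only, chosen after seeing the data, it was 5, namely 2 globin probe sets, the Ctla2 pair, Rfx4 and a probe set with no symbol, and it was 0 on the 6 arrays alone. With the random block of treatment and number, Dnajb1, Cpt2, Rfx4, Ctla2a, Wdr78, Lztfl1, Slc5a3, Prpf4b and 3 globin probe sets had an adjusted p of 0.0479, and Pttg1 was the 1 higher. Of these, Cpt2 and Wdr78 were kept through the acute arrays alone and Pttg1 through the chronic arrays alone. Their place among the calls therefore rests on the group in which they were high. SWR/J against the other strains gave 0 in every setting run.

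Among 1883 values of 87 named probe sets, 1811 kept their direction and side of the threshold, 69 came to pass it, and 3 turned: Olig2 was 0.0202 without the third chronic array and 0.00359 without the first acute array, and Nfkbia was -0.0198 without the third acute array. With 1 array left out, Olig2 ranged between -0.174 and 0.0202 and Nfkbia between -0.0198 and 0.0483. Globin differences stayed between -0.95 and -0.58 with 1 array left out, at adjusted p-values of 0.0553 to 0.459. Signal sets a further limit, since 976 of the kept probe sets were above the minimum on exactly 3 of the 6 arrays.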
